A study of Mus musculus with 4 samples.

Results

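Macrophages of the embryonic mouse lung were divided by whether they carried transcripts of Mki67 and Top2a, which dividing cells make, and the remaining genes were compared between cells with and without them. Of 7479 cells from 3 lungs at E17.5, 1379 had a UMI (a counted transcript molecule) for at least 3 of the 6 immune genes Ptprc, Tyrobp, Fcer1g, Spi1, Laptm5 and Coro1a and for at least 3 of the 5 genes Ear2, Lpl, Plet1, Abcg1 and Gal, which mark macrophages on the way to becoming alveolar macrophages. Among them 440 cells held 2 or more UMIs of Mki67 and Top2a together and are called cycling, and 767 held none and are called non-cycling, which gives 1207 cells to compare. The second name means only that neither transcript was counted: of 255, 210 and 302 such cells in lungs 1 to 3, 102, 86 and 135 also had no UMI of a wider set of 14 cell cycle genes. The other 172 held 1 such UMI and were put in neither class. The cells were thus chosen by the measured values of these genes, so their own values are given only as a description. The 3 lungs were wild-type (WT) C57BL/6 embryos of the same stage, and live cells were collected after digestion with trypsin, collagenase and DNase and lysis of red cells. The labels name no transgene or treatment. The protocol speaks of sorting into lysis plates, whereas the barcodes and processing notes are those of droplet libraries. The series also holds 1 sample of sorted E16.5 fibroblasts, which was not used here.

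Alveolar macrophages clear surfactant, particles and microbes from the air spaces, and most of them descend from fetal monocytes that enter the lung before birth. On the way they switch on Pparg and lipid-handling genes, receptors that bind microbes and opsonized particles, and lysosomal enzymes, and later in life the population renews itself locally by division. A dividing cell copies its DNA in S phase, condenses and segregates chromosomes in G2 and M phase, and has to build histones, nuclear pores and RNA-processing machinery for its daughters.

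The lungs gave 2682, 2140 and 2657 cells with medians of 7979, 8493.5 and 7201 UMIs, and every pair of lungs shared 9 to 12 cell barcodes. The 3 lungs held 480, 352 and 547 macrophages by the rule. Outside the genes of the rule, non-cycling macrophages had 64.0 ± 1.62 CPM (UMIs scaled to 1000000 per cell and averaged over cells, SD, n = 3) of Pparg, the nuclear receptor that drives alveolar macrophage differentiation, against 23.7 ± 6.25 in other immune cells. The membrane carbonic anhydrase Car4 stood at 26.6 ± 2.40 against 2.35 ± 3.03 CPM and the scavenger receptor Marco at 32.6 ± 12.7 against 7.86 ± 5.69 CPM. Siglecf, a surface marker of mature alveolar macrophages, was at 0.470 ± 0.813 against 4.23 ± 2.05 CPM in other immune cells, and Chil3 at 7.39 ± 8.71 against 53.7 ± 17.7 CPM. The integrin gene Itgax stood at 4.73 ± 1.94 against 9.93 ± 2.79 CPM and the mannose receptor gene Mrc1 at 50.7 ± 8.25 against 141 ± 20.9 CPM. Markers of the mature cell were thus split: some were higher than in other immune cells, and others were lower or near 0.

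The cycling cells had higher levels of most measured division genes, of which the rule that chose them counts only Mki67 and Top2a. Mki67 stood at 163, 156 and 157 CPM and Top2a at 325, 382 and 404 CPM in lungs 1 to 3, against 0 in the non-cycling cells by choice. Cdk1, the kinase that starts mitosis, averaged 110 against 14.3 CPM, and Ccnb1, its cyclin, 77.9 against 8.76 CPM. The replication clamp Pcna averaged 178 against 96.9 CPM and the helicase subunit Mcm5 87.9 against 43.4 CPM. The median log2 difference was 0.79 over 36 measured S phase genes and 1.66 over 45 measured genes of G2 and M phase. Over 255 measured genes of a wide cell cycle list it was 1.07, and Pold4, a small subunit of a DNA polymerase, was lower in the cycling cells by the same model (105 against 131 CPM). The genes of the macrophage rule had lower CPM in the cycling cells, for example Ear2 at 415 against 566 CPM, Lpl at 493 against 578 CPM and Tyrobp at 1690.5 against 2476 CPM. In the cells matched on UMIs described below, Tyrobp was still lower (log2 difference -0.45), Ear2 was at -0.08 and Plet1 at -0.02, and the sign turned for Lpl (0.25), Abcg1 (0.11) and Gal (0.03).

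Cycling cells made up 33.5% of the macrophages of lung 1 (exact binomial 95% interval 29.3 to 38.0%), 31.8% of lung 2 (27.0 to 37.0%) and 30.5% of lung 3 (26.7 to 34.6%). The mean was 32.0% ± 1.51 (SD, n = 3), and the lungs' intervals, which cover counting error only, overlap. A cell with more UMIs has more chances to show 2 of them for Mki67 and Top2a. With every cell thinned to 3000 UMIs the share was 16.1% ± 1.36, with 32 shallower macrophages left out. Measured the same way it was 11.6% ± 1.37 in endothelium (19.4% unthinned), 3.53% ± 1.49 in mesenchyme (7.10%), 3.69% ± 1.73 in other immune cells (10.4%) and 1.88% ± 0.195 in epithelium (5.59%). The lowest thinned macrophage value over the lungs, 14.5%, lay above the highest of any of these, 12.6% in endothelium.

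Cycling macrophages held more transcript molecules than non-cycling ones, a difference that the rule itself favours because it counts UMIs. Their median was 10074, 9961.5 and 9194 UMIs in lungs 1 to 3, against 6837, 6802 and 6139 UMIs. The ratio was 1.47, 1.46 and 1.5, with a mean of 1.48 ± 0.0171 (SD, n = 3), and every lung's cycling median was above every lung's non-cycling median. An exact sign permutation test over 3 pairs gave p = 0.25, the smallest it can give. How much of the ratio comes from the rule was not tested. Cells just outside and just inside the limit had similar depth: the 172 cells with 1 UMI of Mki67 and Top2a had a median of 7692 UMIs and the 97 cells with 2 had 7868. The median was 10064 UMIs for 189 cells with 4 to 7 and 11329 for 86 cells with 8 or more. Because depth moves with the classes, the main counts and most gene lists are also given for pairs of cycling and non-cycling cells of the same lung matched on UMIs (128, 103 and 136 pairs), called depth-matched.

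Outside the cell cycle and gate genes, 624 of 6547 tested genes rose in the cycling macrophages, or 9.53%, and 531 fell, or 8.11% (limma with the lung as a pair, adjusted p under 0.05). In all 1155 genes differed, or 17.6%. The changes were mostly small: 146 of the higher genes and 62 of the lower ones differed by 1.5 times or more on the scale of log2(CPM + 10), and 20 and 5 by 2 times or more. RNA-processing, nuclear pore, chromatin and nucleotide synthesis genes were among the higher ones. Receptors, cathepsins, chemokines and MHC class I genes were among the lower ones. The median log2 difference of all tested genes was 0.01. Of the calls 54.0% were higher, a share that was 43.8% with median-of-ratios scaling (536 higher, 689 lower), 41.7% with edgeR on recovered UMIs (512 and 716) and 63.1% with CPM taken over genes other than cell cycle genes (753 and 441). Without lung 3 the counts were 337 higher, or 5.14%, and 235 lower, or 3.59%, and without the pairing 406 and 295. In the depth-matched cells 531 genes were higher, or 8.13%, and 464 lower, or 7.1%, and 394 of the 624 and 314 of the 531 were called again, while 3 of the 624 and 13 of the 531 had the opposite sign. With the non-cycling class limited to cells with no UMI of the 14 cell cycle genes, 463 and 378 were called again. The cycling and non-cycling values of the lungs did not overlap for 1038 higher genes, or 15.9%, and 851 lower genes, or 13%.

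The 14 genes with the largest rise included several that serve division although they were missing from the cell cycle list. Knstrn, a kinetochore protein of the mitotic spindle, stood at 72.7, 64.8 and 77.6 CPM in the cycling cells of lungs 1 to 3 and at 22.7, 10.1 and 20.6 CPM in the non-cycling cells (log2 difference 1.58, SE 0.13, limma adjusted p = 5.63e-10). Arhgap19, a GTPase-activating protein that acts in cell division, was at 38.8, 34.0 and 37.4 against 4.37, 6.39 and 7.08 CPM (1.55, SE 0.15, adjusted p = 7.44e-09). For both genes the lowest cycling lung was more than 2 times the highest non-cycling lung. Tcf19 (1.22), Dnph1, an enzyme that cleans the nucleotide pool (1.24), Hirip3, a histone-binding partner of HIRA (1.17), and Syce2, a component of the meiotic synaptonemal complex (1.15), rose with them. Zfp367, a zinc finger protein, was at 23.5, 29.1 and 22.9 against 3.38, 7.13 and 8.76 CPM (1.11, SE 0.16, adjusted p = 4.93e-06). Cmc2, which takes part in the assembly of cytochrome oxidase, averaged 141 ± 19.4 against 55.6 ± 4.75 CPM (1.19), and Rnf26, a ubiquitin ligase of the endoplasmic reticulum, 38.2 ± 6.58 against 11.4 ± 3.58 CPM (1.17). Leaving out 48 further genes known from division, a list added after seeing the data, gave 588 higher and 531 lower genes.

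**Figure D1:**
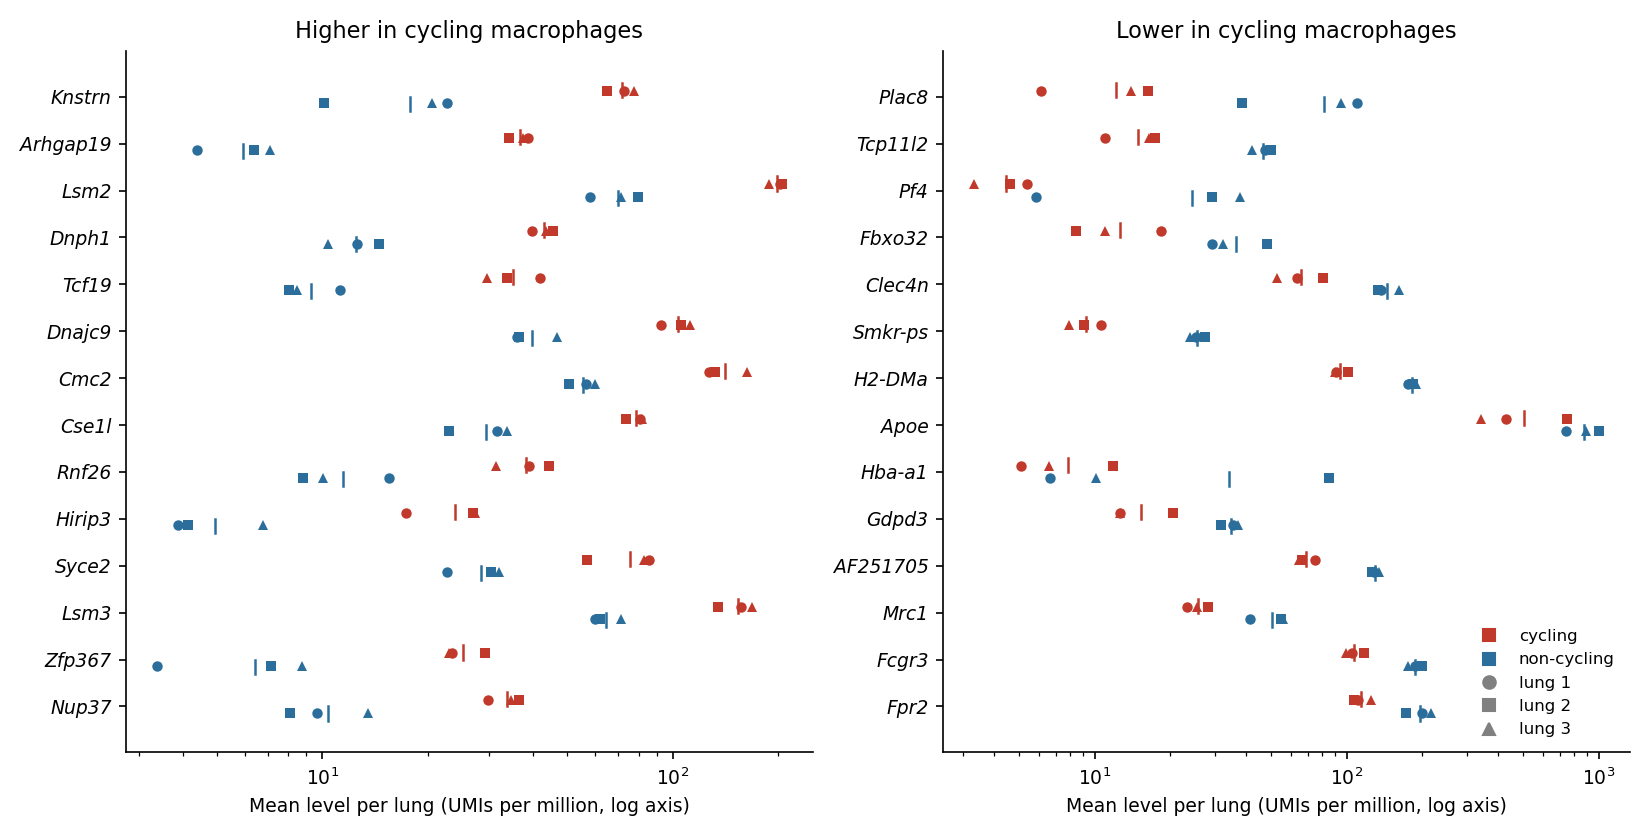
The 14 genes with the largest rise and the 14 with the largest fall in cycling macrophages, with the mean CPM of each lung on a log axis; points are lungs and the 2 colours are cycling and non-cycling cells. For 26 of the 28 genes the lungs of the 2 classes do not overlap, the exceptions being Apoe and Hba-a1. The genes were picked as the largest called changes with the same direction in every lung, a choice that favours such separation. Over all tested genes the lungs did not overlap for 15.9% in the higher and 13% in the lower direction.

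Promoter sequences are shown for 3 of these genes, as examples of the letters of elements known from division genes. They are the 3 of 13 matched promoters among the 14 genes with the largest rise that hold such letters. Among the genes with the largest fall, Mrc1 also held CHR letters, starting 129 bases before the start. In cells that enter the cycle, E2F factors act at sites in promoters of S phase genes, and promoters of G2 and M phase genes often carry a CHR element. The 250 bases before the first listed start were searched on both strands for E2F letters (TTTCCCGC, TTTGGCGC or TTTCGCGC) and for CHR letters (TTTGAA); sequences and starts are from RefSeq, build GRCm38.p6, and capitals mark the matches. Nup37 lies on chr10:88146742-88146991 (plus strand), with CHR letters starting 69 and 47 bases before the start. Zfp367 lies on chr13:64153200-64153449 (minus strand), with E2F letters starting 19 bases before it, and Arhgap19 on chr19:41802085-41802334 (minus strand), with CHR letters starting 95 bases before it.
Nup37: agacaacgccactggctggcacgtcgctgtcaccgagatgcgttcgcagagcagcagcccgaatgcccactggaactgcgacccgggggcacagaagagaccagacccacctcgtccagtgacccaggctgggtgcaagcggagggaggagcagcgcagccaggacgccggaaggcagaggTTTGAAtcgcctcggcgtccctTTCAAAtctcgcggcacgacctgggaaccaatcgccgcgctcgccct
Zfp367: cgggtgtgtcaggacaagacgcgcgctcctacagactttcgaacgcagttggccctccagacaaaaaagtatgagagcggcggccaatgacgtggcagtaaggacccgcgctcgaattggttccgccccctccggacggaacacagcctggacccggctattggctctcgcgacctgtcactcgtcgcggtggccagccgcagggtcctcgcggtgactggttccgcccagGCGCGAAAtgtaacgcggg
Arhgap19: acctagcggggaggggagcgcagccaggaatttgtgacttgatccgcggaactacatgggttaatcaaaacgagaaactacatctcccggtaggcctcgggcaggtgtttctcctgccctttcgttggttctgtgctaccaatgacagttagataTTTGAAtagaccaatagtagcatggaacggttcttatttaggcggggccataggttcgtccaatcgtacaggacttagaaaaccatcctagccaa

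Over all genes the E2F letters were rare and the CHR letters were not. A promoter was matched for 5313 of the 6547 tested genes (81.2%), and E2F letters stood in 3.33% of these and in 1.59% of all 27025 promoters of the table. They were found in 43 of 510 genes higher in cycling macrophages (8.43%), in 6 of 426 lower genes (1.41%) and in 25 of 213 cell cycle genes (11.7%). CHR letters were in 12.7% of the higher, 10.8% of the lower, 25.4% of the cell cycle genes, 9.82% of all tested genes and 16.3% of all promoters. Of 4 further motifs, PU.1 letters (GAGGAAGT) stood in 4.23% of the lower, 1.76% of the higher and 2.65% of all tested genes and 2.44% of all promoters, and AP-1 letters (TGANTCA) in 7.75%, 2.75%, 4.10% and 6.87%. The CCAAT box (CCAAT) stood in 35.7%, 40.6%, 36.1% and 34.5%, and the E-box of MYC (CACGTG) in 10.1%, 10.98%, 9.69% and 6.05%. No motif contains another. A match is a description of these letters, and no binding was measured.

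Many splicing genes rose. Of 62 tested members of the list of splicing factors and hnRNPs, 42 rose and none fell (median log2 difference 0.32). Lsm2, a subunit of the ring that binds U6 snRNA and decaying mRNA, was at 203, 205 and 188 CPM in cycling and 58.2, 79.9 and 71.5 CPM in non-cycling cells (1.39, SE 0.09, adjusted p = 3.63e-12). Its partner Lsm3 was at 157, 135 and 169 against 60.0, 61.9 and 71.2 CPM (1.13, SE 0.09, adjusted p = 2.47e-10). In both subunits every cycling lung was above every non-cycling lung. Alyref, which hands spliced mRNA to the export machinery, was at 332, 348 and 344 against 161, 178 and 174 CPM (0.96), and the hnRNP Hnrnpa3 rose by 0.67 and the SR protein Srsf1 by 0.67. In the depth-matched cells 38 of the list were higher and 1 lower, and without lung 3, 32 were higher.

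Of 32 tested nuclear pore and transport genes, 19 rose and none fell (median 0.43). The pore scaffold was represented by Nup37 at 29.8, 36.5 and 34.6 against 9.63, 8.07 and 13.5 CPM (1.10, SE 0.15, adjusted p = 2.56e-06) and by Nup85 at 30.4, 41.2 and 48.9 against 12, 14 and 16.1 CPM (1.05). Lungs of the 2 classes did not overlap for either. Cse1l, which carries importin alpha back out of the nucleus, was at 80.9, 73.7 and 81.9 against 31.5, 23.1 and 33.6 CPM (1.18), and the exportin Xpo1 at 64.4, 69.0 and 60.1 against 30.1, 31.4 and 31.8 CPM (0.86). Depth-matched cells gave 15 higher and none lower. The nuclear lamina list had 1 of 8 genes higher, Syne2, a giant protein of the nuclear envelope.

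Chromatin genes outside the cell cycle list followed the same direction, with 17 of 34 higher and 1 lower (median 0.28; 16 and 1 depth-matched). The histone chaperone Anp32b was at 706, 782 and 817 against 451, 472 and 482 CPM (0.70, SE 0.05, adjusted p = 1.40e-11), and its partner Set averaged 449 ± 12.9 against 309 ± 5.72 CPM (0.53). Banf1, which helps the nuclear envelope re-form around chromosomes, was at 321, 308 and 327 against 180, 191 and 208 CPM (0.70), and Suz12, a subunit of the Polycomb repressive complex, rose by 0.86. All lungs of the cycling class stood above those of the other class for Anp32b, Set and Banf1. H3f3b, one of the genes of the replication-independent histone H3.3, averaged 2302 ± 26.5 against 1734 ± 46.9 CPM (0.41), whereas the H2A variant gene H2afj fell by 0.36.

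Supply genes rose in part. Of 30 genes of nucleotide and one-carbon synthesis, 13 rose and 1 fell (median 0.31; 9 and none depth-matched). Mthfd2, a mitochondrial folate enzyme, was at 45.9, 40.9 and 47.7 against 18.9, 22.9 and 24.9 CPM (0.77, SE 0.13, adjusted p = 8.81e-05), and Shmt2, which feeds it one-carbon units from serine, at 73.7, 69.6 and 84.6 against 37.5, 43.3 and 47.8 CPM (0.70). The serine synthesis enzyme Psat1 averaged 148 ± 5.36 against 96.0 ± 12.3 CPM (0.58), and Impdh2 of guanine nucleotide synthesis 147 ± 10.9 against 98.5 ± 6.22 CPM (0.53, depth-matched adjusted p = 0.051). Aprt, of adenine salvage, was the member that fell, by 0.17.

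Of 32 chaperones 14 rose and 3 fell (median 0.16), and depth-matched cells gave 8 and 4. Dnajc9, a cochaperone that also binds histones, was at 92.9, 106 and 112 against 35.9, 36.5 and 46.7 CPM (1.2, SE 0.11, adjusted p = 1.45e-09), and Hsp90aa1 and its cochaperone Ptges3 rose by 0.40 and 0.54. The 3 that fell, Hspa5, Pdia3 and Calr, fold proteins in the endoplasmic reticulum (-0.33, -0.31 and -0.20). Ribosome biogenesis had 9 of 49 higher and 1 lower (median 0.11), with 3 higher without lung 3, 5 without lung 1 and 5 depth-matched. Its members Ncl and Lyar rose by 0.41 and 0.68. Mitochondrial import and ribosome genes had 12 of 52 higher and 1 lower (median 0.09), among them Mrpl51 at 0.59, with 7 higher without the pairing and without lung 3. Medians lay between -0.04 and 0.05 for nuclear-encoded respiratory chain genes (5 higher and 6 lower of 77), glycolysis (1 and none of 18), the proteasome (5 and 1 of 35) and translation factors (5 and 4 of 38). Over all tested genes 9.53% were higher. The higher share was above this in the proteasome and translation factors and below it in the respiratory chain and glycolysis. Of the respiratory chain 14 were higher without lung 2, and in depth-matched cells 1 proteasome gene was higher and 5 lower. Of 13 mitochondrially encoded genes 1 rose and 1 fell.

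Cytosolic ribosomal protein genes split by scaling. In the main fit 30 of 81 fell and 1 rose, with a median of -0.05, for example Rpl10 at 3482, 3483 and 3302 against 4113, 4110 and 3907 CPM (-0.24, SE 0.03, adjusted p = 8.46e-08). With median-of-ratios scaling the counts were 1 higher and 41 lower, with CPM over genes other than cell cycle genes 6 and 11, in depth-matched cells 7 and 44, and without the pairing 1 and 6. Without lung 1 the count was 10 lower and without lung 3 it was 8, so the number of these calls rests on the scaling and on single lungs.

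**Figure D2:**
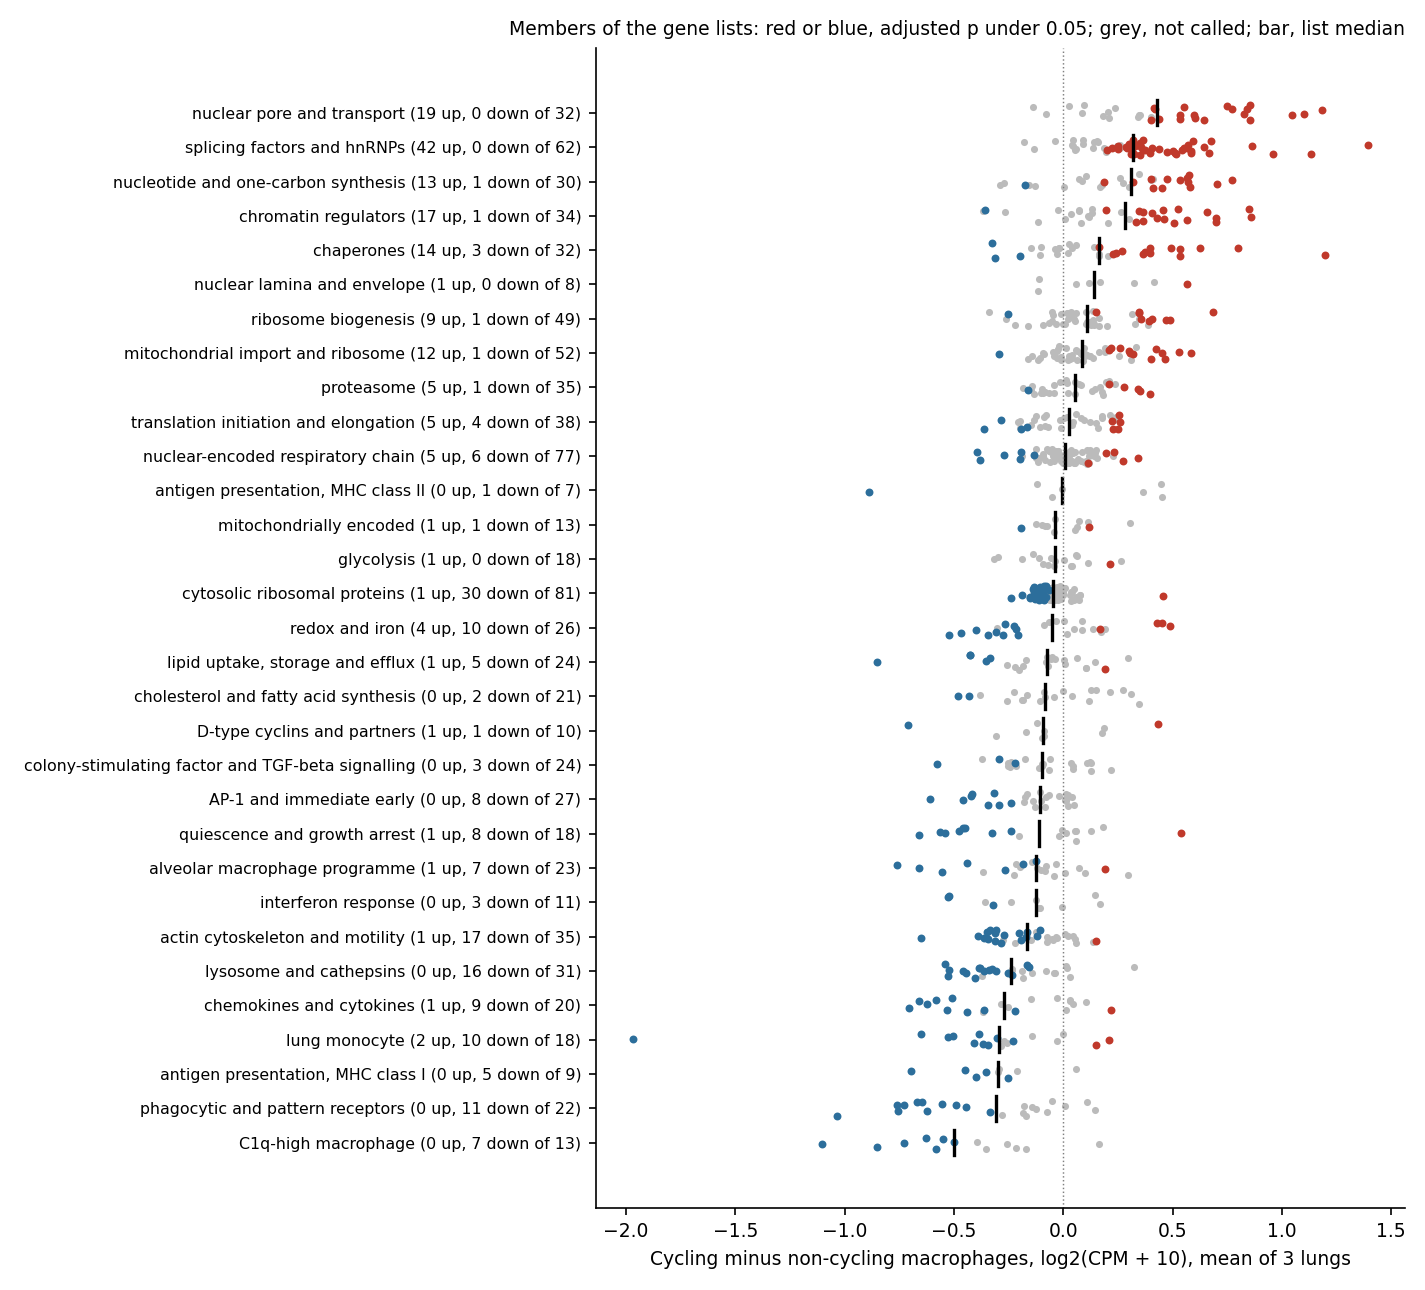
Log2 difference, cycling minus non-cycling macrophages, of every tested member of the gene lists with 7 or more tested genes; red and blue points passed limma's adjusted p, grey points did not, and black bars are list medians. Nuclear pore (median 0.43) and splicing genes (0.32) stand at the higher end and C1q-high macrophage (-0.50) and phagocytic receptor genes (-0.31) at the lower end.

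Receptors with which macrophages bind particles and microbes were lower in the cycling cells. Of 22 tested phagocytic and pattern receptor genes, 11 fell and none rose (median -0.31; 6 lower depth-matched, 7 without lung 3). Clec4n, which encodes Dectin-2, a receptor for fungal mannans, was at 63.3, 80.8 and 53.1 CPM in cycling and 137, 133 and 162 CPM in non-cycling cells (-1.04, SE 0.11, adjusted p = 4.73e-08). The IgG receptor gene Fcgr3 was at 105, 117 and 99.6 against 187, 199 and 176 CPM (-0.75, SE 0.08, adjusted p = 3.93e-08). The LPS co-receptor gene Cd14 was at 64.0, 74.0 and 66.3 against 115, 123 and 119 CPM (-0.73). No lung of one class reached the other class for these 3 genes. In depth-matched cells Clec4n stood at -0.95, Fcgr3 at -1.06 and Cd14 at -1.12. The formyl peptide receptor Fpr2, outside the list, was at 111, 107 and 125 against 200, 172 and 217 CPM (-0.73), and the mannose receptor Mrc1 at 23.3, 28.1 and 25.4 against 41.2, 54.9 and 56.0 CPM (-0.76). Mrc1 lost its call in depth-matched cells (-0.32, adjusted p = 0.166). Members that did not pass include Trem2 (-0.18), Axl (-0.14), Msr1 (0.15) and Cd36 (0.01).

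Lysosomal genes went the same way by smaller amounts, with 16 of 31 lower and none higher (median -0.24). Ctss, a cathepsin that trims antigen for MHC class II, was at 458, 513 and 449 against 698, 626 and 728 CPM (-0.52, SE 0.06, adjusted p = 1.57e-07), and the hexosaminidase subunit Hexa at 203, 177 and 190 against 263, 253 and 279 CPM (-0.46). Their lungs did not overlap. In depth-matched cells 10 were lower and 1 higher, with Ctss at -0.69, Ctsh at -0.70 and Ctsd at -0.13 (adjusted p = 0.0947). Without lung 3 the list had 9 lower genes and without the pairing 10.

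Antigen presentation genes were lower where the class I molecule is built. Of 9 tested MHC class I genes 5 fell, here and in the depth-matched cells, and none rose (median -0.30). H2-K1 was at 130, 113 and 132 against 158, 176 and 188 CPM (-0.45, SE 0.08, adjusted p = 1.97e-04), H2-D1 averaged 350 ± 42.0 against 463 ± 26.1 CPM (-0.40) and the light chain B2m 738 ± 39.6 against 949 ± 116 CPM (-0.35). Of 7 tested class II genes 1 fell, H2-DMa, which loads peptides onto class II molecules, at 91.0, 101 and 89.9 against 175, 184 and 188 CPM (-0.89, SE 0.08, adjusted p = 4.02e-09). The class II chains H2-Aa and H2-Ab1 averaged 20.6 ± 11.5 against 13.2 ± 12.6 CPM and 23.2 ± 7.30 against 18.1 ± 20.3 CPM, with overlapping lungs and no call. Without lung 2 the class II list had 3 higher genes and without lung 1 it had 2, with 1 lower in both. The interferon response had 3 of 11 lower and none higher (median -0.13; 5 lower depth-matched).

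Chemokine and cytokine genes had 9 of 20 lower and 1 higher, Mif (median -0.27). Cxcl2, a neutrophil attractant, was at 1059, 972 and 1372 against 1832, 1576 and 1949 CPM (-0.66, SE 0.04, adjusted p = 3.12e-12), with the lungs apart. Ccl3 (-0.62), Ccl9 (-0.58), Ccl6 (-0.53) and Tnf (-0.70) were lower too. The list had 6 lower in depth-matched cells (median -0.12), 6 without the pairing and 5 without lung 3. Immediate early genes, which also respond to tissue digestion, had 8 of 27 lower and none higher (median -0.10; 7 lower depth-matched), among them Btg2 at 123, 117 and 132 against 159, 173 and 190 CPM (-0.46).

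Genes of growth arrest were lower in part: 8 of 18 fell and 1 rose, Ccng2 (median -0.11; 4 and none depth-matched, 5 lower without lung 1). Btg1, an antiproliferative gene, was at 381, 441 and 510 against 625, 662 and 835 CPM (-0.66, SE 0.05, adjusted p = 9.04e-11). Rgs2 (-0.54), Ypel3 (-0.56) and Tob2 (-0.48) fell as well. Among D-type cyclins, their kinases and MYC partners, Cdk4 rose, at 174, 193 and 171 against 136, 130 and 124 CPM (0.43, depth-matched adjusted p = 0.12), and Mxd4, an antagonist of MYC, fell, at 34.3, 34.3 and 20.5 against 43.0, 64.0 and 56.8 CPM (-0.71). The other 8 of 10 did not pass, among them Ccnd3 at 154 ± 12.5 against 135 ± 5.08 CPM. Tcp11l2, outside the lists, was at 11, 17.3 and 16.4 against 47.6, 50.2 and 42.0 CPM (-1.19), and the ubiquitin ligase subunit Fbxo32 at 18.4, 8.44 and 11 against 29.1, 48.4 and 32.2 CPM (-1.04). Depth-matched they stood at -1.10 and -0.63.

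Actin and motility genes had 17 of 35 lower and 1 higher (median -0.17), led by the leukocyte actin-binding gene Lsp1 at 318, 340 and 335 against 551, 509 and 518 CPM (-0.65). In depth-matched cells 12 were lower and 4 higher (median -0.07) and without the pairing 11 were lower. Iron and redox genes had 10 of 26 lower and 4 higher, with 6 lower and 1 higher without lung 3 and 6 of each depth-matched. The ferritin light chain Ftl1 was at 8485, 9644 and 9090 against 11291, 12366 and 12176 CPM (-0.40, SE 0.02, adjusted p = 1.23e-14), and the peroxidase Prdx5 at 728, 747 and 742 against 1027, 1040 and 1013 CPM (-0.47). Both kept the lungs of the classes apart.

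The programme of the alveolar macrophage was lower in part, and its direction depended on depth. Of 23 tested genes beyond the rule, 7 fell and 1 rose, the fatty acid binding protein Fabp5 (0.19), with a median of -0.12. The other 15 were not called. The summed list ranged from 6692 to 7561 CPM in cycling and from 8093 to 8887 CPM in non-cycling cells. These ranges do not overlap, as was so for 13% of all tested genes in the lower direction. The sum stood at -0.05, -0.21, -0.26 and -0.35 (log2) in cells with 1, 2 to 3, 4 to 7 and 8 or more Mki67 and Top2a UMIs. Abundant members weigh most in it, among them Lgals3 and Cxcl2, which is also in the chemokine list. In depth-matched cells 3 were higher and 3 lower and the median was 0.12, the opposite sign. Without lung 3 the count was 4 lower. Mrc1 and Cxcl2 are described above. Il18 was at 105, 94.2 and 104 against 117, 140 and 168 CPM (-0.44) and stood at -0.07 in depth-matched cells (adjusted p = 0.77). Lgals3, which encodes galectin-3, was at 1563, 1493 and 1665 against 1923, 1884 and 1871 CPM (-0.27), and at -0.28 depth-matched. Related lists were lipid uptake, storage and efflux (1 higher and 5 lower of 24), sterol and fatty acid synthesis (none and 2 of 21) and colony-stimulating factor and TGF-beta signalling (none and 3 of 24). Over all tested genes 9.53% were higher and 8.11% lower. The lower share of each of these lists was above that, on few genes, and the higher share below it.

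Along the number of Mki67 and Top2a UMIs the groups of genes moved in different ways. Summed nuclear pore genes stood 0.35 above the cells with no UMI (log2, mean of 3 lungs) in cells with 1 UMI, 0.55 at 2 to 3, 0.63 at 4 to 7 and 0.57 at 8 or more. Splicing genes stood at 0.22, 0.38, 0.37 and 0.36, a plateau from 2 UMIs on. Phagocytic receptors stood at -0.23, -0.38, -0.40 and -0.45 and lysosomal genes at -0.11, -0.19, -0.27 and -0.30. Chemokines were at 0.04 in cells with 1 UMI and at -0.31, -0.41 and -0.46 beyond. H2-DMa averaged 182, 141, 102, 93.3 and 78.2 CPM from 0 to 8 or more UMIs, and Lsm2 69.9, 112, 198, 192 and 214 CPM. The cells with 1 UMI, which entered no test, thus lay between the classes for most of these groups. Markers of other cells moved along the same axis: summed endothelial genes were at 166 CPM with no UMI, 192 CPM at 4 to 7 and 481 CPM at 8 or more (log2 1.42, higher in all 3 lungs), and epithelial genes stood at 1.12, -0.70 and 0.57 in lungs 1 to 3 at 8 or more. Depth rises along it too, and the part of either in the order was not tested.

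**Figure D3:**
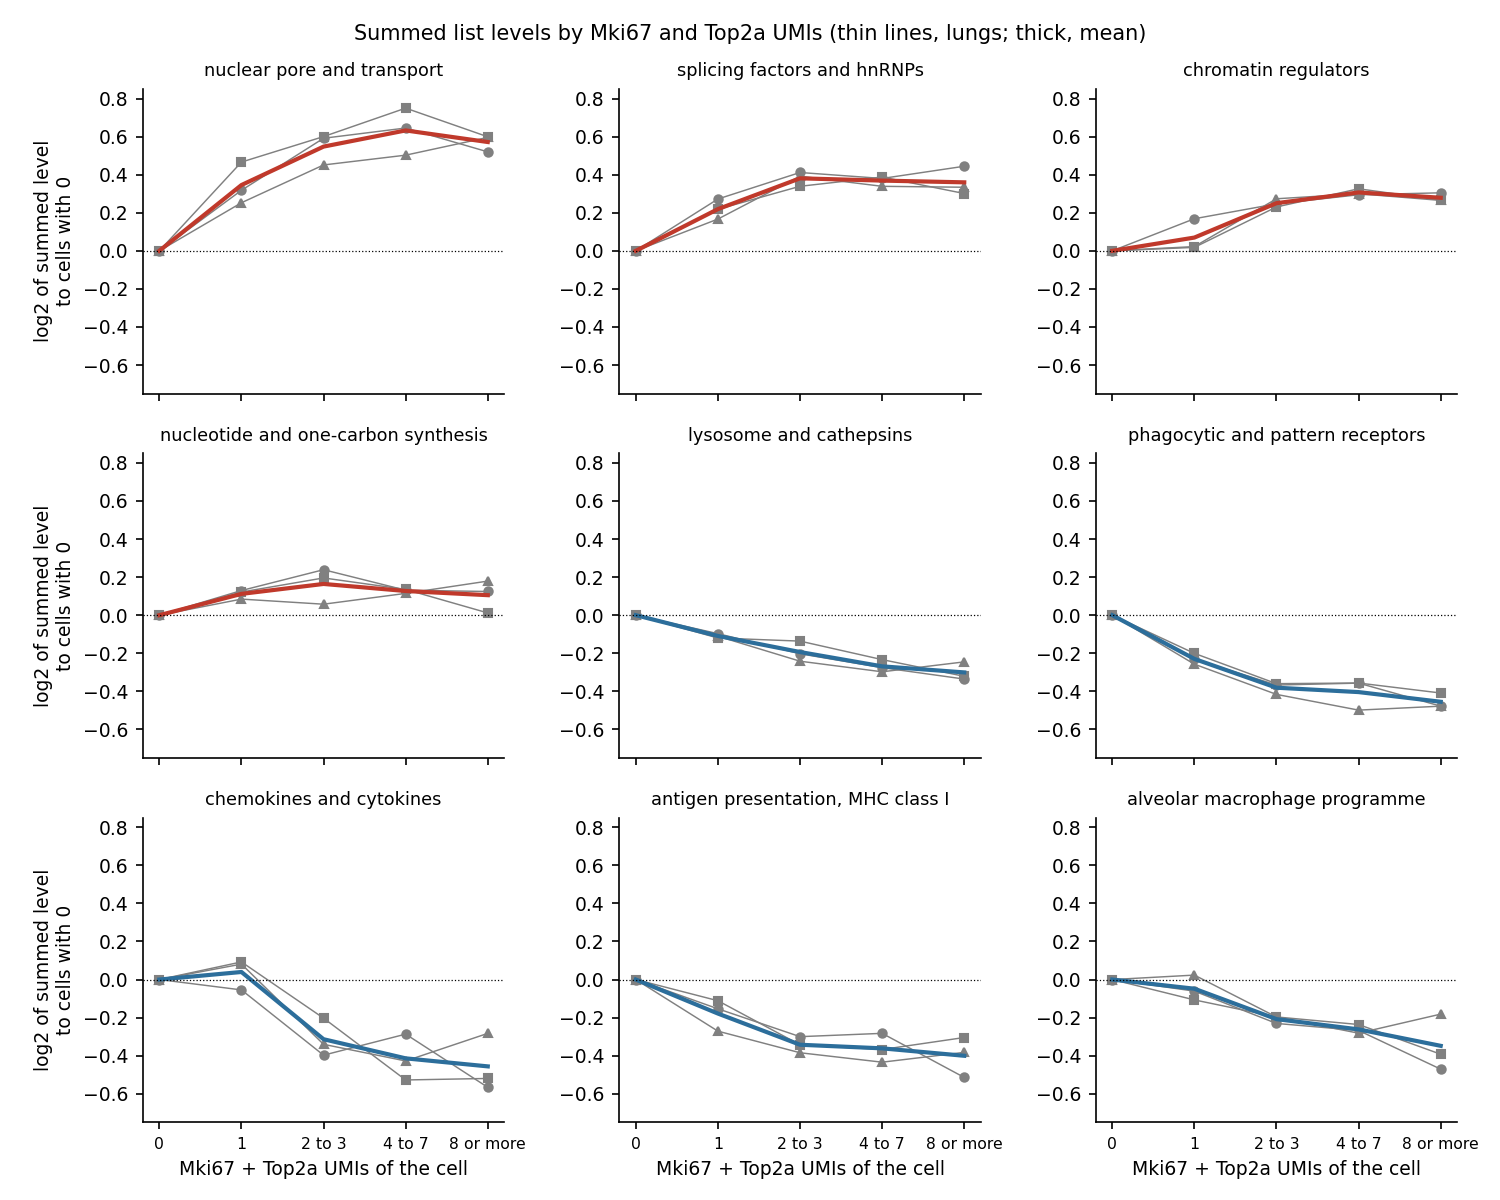
Summed level of 9 gene lists, as log2 to the cells with no Mki67 or Top2a UMI, in cells with 0, 1, 2 to 3, 4 to 7 and 8 or more such UMIs; thin lines are lungs and the thick line is their mean. Nuclear pore, splicing and chromatin genes lie above 0 and lysosomal, phagocytic, chemokine and MHC class I genes below 0 from 2 UMIs on.

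Some of the largest falls rested on few cells and on markers of other macrophages or monocytes. Plac8, a gene of monocytes, was at 6.10, 16.3 and 13.9 CPM in cycling and 110, 38.4 and 95.1 CPM in non-cycling cells (-1.97, SE 0.21, adjusted p = 4.01e-08), but the 5 highest cells gave 68.4% of the non-cycling level. With at least 4 of the 5 pre-alveolar genes required, its difference was 0.12 (adjusted p = 0.797). Pf4, a marker of resident C1q-high macrophages, was at 5.39, 4.64 and 3.33 against 5.86, 29.3 and 37.6 CPM (-1.10), with 67.4% of the non-cycling level in 5 cells, and lost its call without lung 3 (-0.73, adjusted p = 0.0875). Apoe was at 429, 749 and 342 against 745, 999.9 and 892 CPM (-0.85), with overlapping lungs and 25.8% in 5 cells. In depth-matched cells Apoe stood at -1.56, Pf4 at -1.61 and Plac8 at -1.82. In other immune cells these genes were far higher, at 1689, 934 and 9710 CPM. Of 13 C1q-high macrophage genes 7 fell and none rose (median -0.50). In depth-matched cells 10 of 14 were lower (median -0.87). The median was -0.24 with 4 of 5 pre-alveolar genes and -0.22 without lung 3, where 4 genes were called. Of 18 lung monocyte genes 10 fell and 2 rose (median -0.29; 4 lower without lung 3, 11 of 19 depth-matched). The summed level of the C1q-high list (23 genes, Cd163 and Timd4 at 0) ranged from 918 to 1464 CPM in cycling and from 1493 to 2006 CPM in non-cycling cells, and that of the monocyte list from 7346 to 7939 and from 7756 to 8386 CPM. With 4 of the 5 pre-alveolar genes required, 8 of 21 phagocytic receptor genes and 10 of 31 lysosomal genes were lower and none higher. An alternative added after seeing the data left out cells with 3 or more of Plac8, Ly6c2, C1qa, C1qb, C1qc and Pf4 above 0 (25, 20 and 17 macrophages in lungs 1 to 3). Without them 600 of the 624 and 500 of the 531 calls were made again, with 10 of 22 phagocytic receptor genes and 14 of 31 lysosomal genes lower. Apoe then stood at -0.60 and Plac8 at -2.05, Pf4 was below the filter, and 5 of 10 C1q-high genes were lower (median -0.26). Because C1qa, C1qb, C1qc and Pf4 are members of the C1q-high list, their lower levels there follow from the choice of cells.

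Markers of lung cells other than macrophages and monocytes were present in both classes. Their summed lists ranged from 6.4 CPM for mast cell and basophil genes to 3778 CPM for epithelial genes. Endothelial genes were higher in the cycling cells, with 4 of 7 tested called and a median of 0.42; the vascular receptor subunit Ramp2 was at 45.6, 65.7 and 35.2 against 23.1, 30.7 and 21.2 CPM (0.73), and the level in endothelium was 1433 CPM. The summed list of 11 genes ranged from 197 to 351 CPM in cycling and from 137 to 212 CPM in non-cycling macrophages. None was called, and the median was 0.00, without the cells that also passed the gate of another compartment (13.2% of cycling and 8.74% of non-cycling cells), and none in depth-matched cells, and 2 were called without lung 2, 2 without lung 3 and 1 without the pairing. The endothelial gate counts Pecam1, Cdh5, Cldn5, Kdr, Egfl7 and Esam, all members of this list, so leaving its cells out lowers the list by construction. In the fit without cells of another gate 538 genes were higher, or 8.33%, and 456 lower, or 7.06%, and 511 of the 624 and 434 of the 531 calls were made again. Called doublets were 2.95% of cycling and 2.74% of non-cycling cells, and without them 596 and 496 of the calls were made again.

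The epithelial list (19 genes) summed to between 2051 and 3631 CPM in cycling and between 2357 and 3778 CPM in non-cycling cells, with 1 of 15 called higher and 2 lower, none called without cells of another gate, and 8 of 14 lower in depth-matched cells. The genes of the epithelial gate are members of this list too, so leaving its cells out lowers the list by construction. Sftpc, the surfactant protein gene that makes up most of this sum, averaged 2379 CPM in non-cycling macrophages, 1735 in endothelium, 1827 in mesenchyme and 46988 in epithelium. The higher one was Scgb3a2, which rested on 1 lung, at 365, 47.7 and 37.5 against 23.8, 49.1 and 48.8 CPM. Mesenchymal genes (15) summed to 349 to 565 and 482 to 745 CPM, with 2 of 7 lower. Red cell genes summed to 30.1 to 52.8 and 36.8 to 300.3 CPM, and Hba-a1, at 5.09, 11.8 and 6.58 against 6.66, 85.3 and 10.1 CPM, drew 74.8% of its non-cycling level from 5 cells. Neutrophil genes summed to 315 to 670 and 405 to 733 CPM, mast cell and basophil genes to 6.4 to 9.5 and 6.74 to 8.62 CPM, lymphocyte genes to 17.6 to 22.1 and 26.7 to 36.9 CPM, and dendritic cell genes to 88.6 to 99.2 and 126 to 133 CPM. Among the genes at 0 in both classes were Hbb-y, Hba-x and Alas2 of red cells, Mcpt4, Ms4a2 and Fcer1a of mast cells, Cd3e of lymphocytes and Xcr1 of dendritic cells. A count of 0 allows up to 3 UMIs of the class total, or 0.647 CPM in cycling and 0.548 CPM in non-cycling cells. Beyond the fits named here, the part of these cells in the results was not tested.

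**Figure D4:**
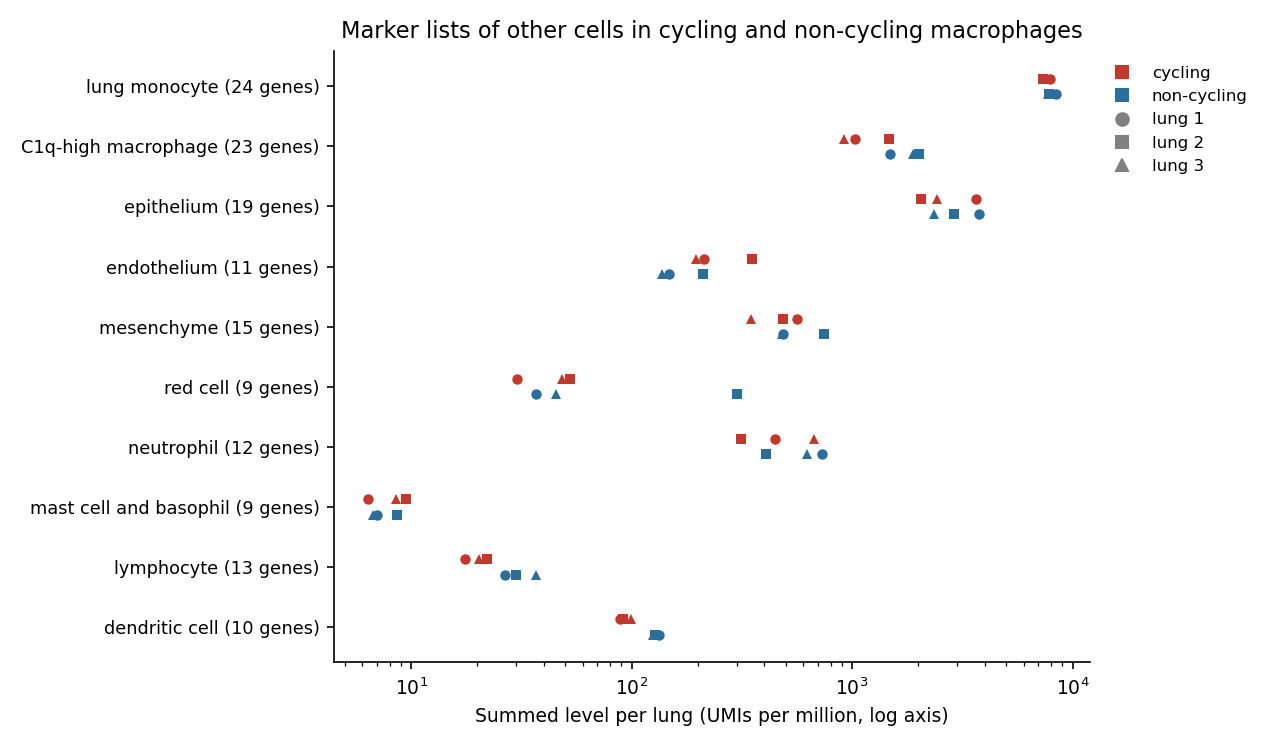
Summed CPM of marker lists of other cells in cycling and non-cycling macrophages, 1 point per lung on a log axis. Endothelial markers lie higher in the cycling cells (197 to 351 against 137 to 212 CPM) and C1q-high macrophage markers lower (918 to 1464 against 1493 to 2006 CPM).

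The same division of cells was made in epithelium, endothelium and mesenchyme of the same lungs. Of the genes higher in cycling macrophages, 614 were also measured there, and 425 of them (69.2%) were above 0 in all 3 compartments, against 21.1% of all 6171 genes measured in both. Of 492 lower genes 277 (56.3%) were below 0 in all 3, against 25.4% of all. These are other cells of the same libraries. Nuclear pore genes had medians of 0.42 in macrophages, 0.51 in epithelium, 0.52 in endothelium and 0.44 in mesenchyme, splicing genes 0.32, 0.52, 0.37 and 0.39, and lysosomal genes -0.24, -0.16, -0.25 and -0.25. Phagocytic receptors measured in all had -0.26, -0.18, -0.09 and -0.09, and chemokines -0.36, -0.10, -0.02 and -0.07. Immune genes can be low in the other compartments. For example, Fcgr3 was at 6.71, 6.18 and 7.05 CPM in their non-cycling cells, against 187 CPM in macrophages. At such levels the 10 CPM added before the log draws differences toward 0. These medians therefore cannot tell whether the falls are particular to macrophages. Medians of the cell cycle genes, which the rule touches, were 1.00 in macrophages and 1.39, 1.58 and 1.64 in the others.

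**Figure D5:**
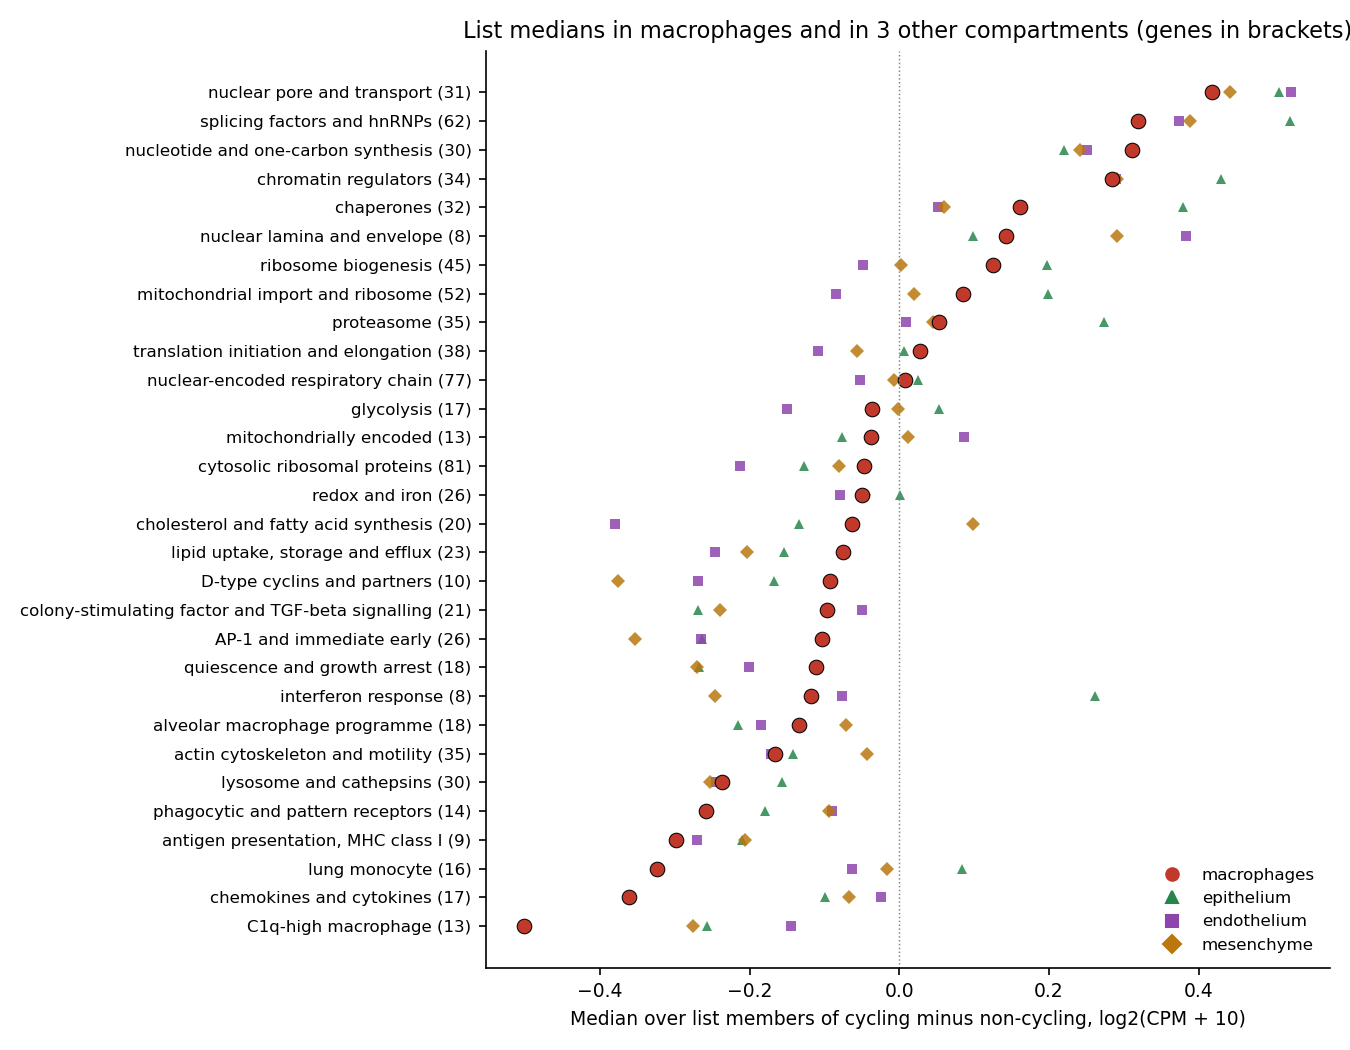
Median over list members of the cycling minus non-cycling difference, log2(CPM + 10), in macrophages and in epithelium, endothelium and mesenchyme of the same lungs; the number of genes measured in all stands in brackets. Nuclear pore and splicing genes lie above 0 and lysosomal genes below 0 in all 4 compartments.

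The difference between the macrophage effect and the mean effect of the 3 compartments was tested gene by gene. It was called higher for 45 of 8057 genes, or 0.559%, and lower for 39, or 0.484%, so 84 in all, or 1.04%, and the remaining genes give no evidence that the effects are equal. Depth-matched cells gave 12 and 24 calls, without lung 1 there were 30 and 16, without lung 2 there were 13 and 10, and without lung 3 there were 28 and 21. Of 301 cell cycle genes, which these counts leave out, 1 was called higher and 90 lower in the same fit. Whether the lower genes named here share that shift was not tested. Trim59, an E3 ligase of the TRIM family, was at 6.03 ± 1.24 against 5.27 ± 1.3 CPM in macrophages, while its log2 difference was 1.46 in epithelium, 1.76 in endothelium and 1.10 in mesenchyme (difference of effects -1.37, SE 0.23, limma adjusted p = 8.26e-04). Skp2, which brings the inhibitor p27 to degradation, was at 9.76 ± 2.83 against 4.88 ± 0.604 CPM in macrophages, a difference of 0.40 against 1.24, 1.70 and 1.32 (-1.02, SE 0.23, adjusted p = 0.0116, and 0.161 in depth-matched cells, 0.196 without lung 1 and 0.181 without lung 3). The lamin gene Lmnb2, at 14.2 ± 2.27 against 8.12 ± 1.14 CPM in macrophages, had 0.42 against 1.3, 1.59 and 1.40 (-1.02, adjusted p = 0.00839, 0.159 depth-matched, and 0.0630 to 0.133 over left-out lungs). At levels this low in macrophages, the 10 CPM added before the log shrinks the differences of these 3 genes. With edgeR on recovered UMIs the difference of effects was -1.39 for Trim59 (adjusted p = 0.0911), -1.08 for Skp2 (0.198) and -1.23 for Lmnb2 (0.0417). Rcbtb2 was lower in cycling macrophages, at 30.7 ± 4.44 against 55.9 ± 13.1 CPM (-0.68), and stood at 1.00, -0.18 and 0.20 in the others (-1.03, SE 0.20, adjusted p = 0.0033, and 0.0732 without lung 3). Fbln5, an elastic fibre protein, was at 10.1 against 11.4 CPM in macrophages and had differences of -0.87, -2.56 and -1.18 elsewhere (1.44, SE 0.24, adjusted p = 5.21e-04). Abhd5, which activates the triglyceride lipase of lipid droplets, was at 80.7 ± 9.69 against 63.0 ± 1.83 CPM in macrophages and had differences of -0.71, -0.77 and -0.82 elsewhere (1.07, SE 0.27, adjusted p = 0.0315, 0.111 depth-matched, and 0.0679 to 0.161 over left-out lungs).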

How the data were processed

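Per the labels, single live cells of 3 E17.5 WT lungs were measured. The deposited values are normalized signal per gene and cell, and the submitters' processing notes name Cell Ranger 1.3.1 and Seurat 3.0.0, without their roles, and no build (not given in the sources used here). Dividing by a cell's smallest value gave whole UMIs for 100% of values (tolerance 0.01). The lungs totalled 23996253, 20347458 and 21358915 UMIs. The members, lists and tests were chosen with earlier results of these data known.

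Per lung and class, log2(mean per-cell CPM + 10) was fitted with limma 3.58.1 (R 4.3.3), lung as block, for 6815 genes averaging 10 CPM or more; 2 residual and 23.6 prior degrees of freedom mean that p-values rest mostly on spread pooled over genes. Benjamini-Hochberg adjustment ran over all genes tested. Same-lung classes deviated together (r = 0.176, 0.189 and 0.259 across genes; other pairs -0.164 to -0.0362), and the pairs are the same lung. The lungs' litters are not stated, so p-values cover the spread between these samples. edgeR 4.0.16 on recovered UMIs, other scalings, stricter cell rules and left-out lungs were alternatives. The compartment test used classes of 20 or more cells, which dropped epithelium of lung 2; a contrast with other immune cells was not run, since every lung held under 20 cycling ones. Doublets were called by an implementation of Scrublet's method (2000 genes, 30 components) and kept. Named genes are the 14 largest called changes in each direction with 1 direction in 3 of 3 lungs, without cell cycle and gate genes and unnamed gene models, and up to 4 members per list with the smallest p; list members called outside this rule were named after their values were seen. For the compartment test they are 8 in each direction. The fits were tested on simulated data. Figures were drawn with matplotlib 3.10.9, and scipy 1.17.1, pandas 2.3.3, scikit-learn 1.9.0 and numpy 2.4.6 ran under Python 3.11.15. One of the added cell filters and some marker genes are not reported here.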

Additional observations from a re-analysis of the deposited data

Results flagged for a closer look

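For 16 genes the cycling effect in macrophages differed from the mean effect in epithelium, endothelium and mesenchyme by limma's test of that difference, and they are the 8 with the largest difference in each direction. The macrophage effect was the higher one for Fbln5 (difference of log2 effects 1.44), Ccl21a (1.23), Msln (1.15), Hspb1 (1.12), Sdpr (1.07), Abhd5 (1.07), Ramp2 (0.97) and Cblb (0.96). The effect itself ran from -0.10 (Fbln5) to 0.73 (Ramp2) in macrophages, with Ccl21a at -0.06 and Hspb1 at 0.03. The mean effect elsewhere was negative for each of them, from -1.54 (Fbln5) to -0.24 (Ramp2). The macrophage effect was the lower one for Plac8 (-1.97), Trim59 (-1.37), Fxyd6 (-1.24), Rcbtb2 (-1.03), Skp2 (-1.02), Lmnb2 (-1.02), Cep89 (-1.01) and Aard (-0.92). By the same test it was lower for 90 of 301 cell cycle genes and higher for 1.

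In depth-matched cells the test was also passed by Fbln5 (adjusted p = 0.0475), Plac8 (0.00568), Trim59 (0.0122), Fxyd6 (0.0377) and Rcbtb2 (0.0278). Most of the non-cycling macrophage level of Plac8 came from few cells, as given above. Its effect within macrophages was 0.12 with at least 4 of the 5 pre-alveolar genes required (limma adjusted p = 0.797), a setting not run for the compartment test. With edgeR on recovered UMIs the calls of Trim59 (adjusted p = 0.0911), Fxyd6 (0.106), Skp2 (0.198), Cep89 (0.0561), Aard (0.135), Ccl21a (0.277) and Cblb (0.0762) were lost. A pseudocount of 1 CPM took calls including Fxyd6 (limma adjusted p = 0.167), Ccl21a (0.105), Msln (0.0849), Abhd5 (0.165), Skp2 (0.172) and Cblb (0.0854). Ccl21a was at 1.13 ± 0.244 CPM in cycling and 1.69 ± 2.14 CPM in non-cycling macrophages, Fxyd6 at 0.753 ± 0.654 and 1.10 ± 0.513 CPM and Aard at 0.166 ± 0.190 and 1.65 ± 2.29 CPM, levels that rest on few UMIs. Ccl21a averaged 0.584 CPM in cycling and 124 CPM in non-cycling endothelium, and Msln 69.9 and 368 CPM in epithelium. Aard lost its call without any 1 lung (adjusted p = 0.198, 0.241 and 0.096 without lungs 1, 2 and 3), as did Abhd5 (0.0679, 0.161 and 0.153), Cblb (0.423, 0.0736 and 0.0751) and Lmnb2 (0.0953, 0.133 and 0.0630). Calls were also lost by Sdpr without lung 2 (0.0718), Fxyd6 without lung 1 (0.0786), Rcbtb2 without lung 3 (0.0732), Skp2 without lung 1 (0.196) or lung 3 (0.181) and Cep89 without lung 1 (0.0989) or lung 2 (0.0811). Without cells that also passed the gate of another compartment, Sdpr lost its call (0.77, adjusted p = 0.0590) and Ramp2 stood at 0.57 (0.0449; depth-matched 0.58, 0.197). Endothelium had 529 and 515 CPM of Sdpr and 1339 and 1433 CPM of Ramp2 in cycling and non-cycling cells, and macrophages that passed another gate were 13.2% of cycling and 8.74% of non-cycling ones.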

How the results depend on the processing

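Of the counts of genes higher and lower in cycling macrophages (624 and 531), the value moved by over 1.5 times without the replicate block, that is without the pairing of lungs (406 and 295), without the filter on low values (351 lower), and without lung 3 (337 and 235). Without lung 1 the counts were 465 and 414 and without lung 2 they were 573 and 471, within 1.5 times. Requiring 4 UMIs, no doublets, no cells of another gate, 4 of 5 pre-alveolar genes, another pseudocount or another scaling kept both counts within 1.5 times. The 45 higher and 39 lower differences from the other compartments became 12 and 24 in depth-matched cells, 145 and 72 with cycling set at 4 or more UMIs, 26 and 21 with a pseudocount of 1, 18 and 23 without the filter, and 71 and 85 with edgeR. They became 60 lower with median-of-ratios scaling, 91 lower with only S, G2 and M phase genes and histones left out, 34 and 32 without the block, and 13 to 30 and 10 to 21 over left-out lungs.

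The share of cycling cells was 19.9% at 4 or more UMIs, 16.1% thinned, 33.9% with 4 of 5 pre-alveolar genes and 31.2 to 32.7% over left-out lungs. The UMI ratio was 1.6 at 4 or more UMIs, 1.42 without cells of another gate and 1.47 to 1.49 over left-out lungs. In depth-matched cells 3 of the 624 and 13 of the 531 genes had the opposite sign, and of the genes that chose the cells Lpl turned to 0.25, Abcg1 to 0.11 and Gal to 0.03. Of the genes picked by the naming rule, signs turned for Plac8 (0.12) and Sftpc (0.0021) with 4 of 5 pre-alveolar genes and for Tmsb4x in depth-matched cells (0.0079). The sign of Scgb3a2 turned in depth-matched cells (-0.15), without cells of another gate (-0.022) and without lung 1 (-0.17). Scgb3a2 stood at 1.04 in all lungs and at 1.72 without lung 3, and the cause of these turns was not tested. Of the 28 genes with the largest changes, Pf4 lost its call without lung 3, Hba-a1 without the filter (adjusted p = 0.132) and without the block (0.220), and Mrc1 in depth-matched cells. Genes near 10 CPM rest on few UMIs, such as 104 in cycling and 27 in non-cycling cells for Hirip3, and changes there are understated on this scale.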
